A study of Mus musculus with 9 samples.

Results

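The genes described here are the Wnt pathway genes of the series: its secreted ligands, their receptors and co-receptors, secreted antagonists, the R-spondin axis, the cytoplasmic and nuclear core, and genes that the pathway itself switches on. They were taken by name from a list of gene families and single genes that was drawn up with earlier results of these data known, and 38 of the 12550 genes in the table belong to it. By family these are 7 Wnt ligands, 9 Frizzled receptors, 3 Sfrp and 2 Dkk antagonists and 17 single genes. Sfrp5, Dkk1, Dkk4, Wif1 and Rnf43, which the rule also names, are not analysed here, and Sfrp3 is counted below under its current name Frzb. All 38 genes passed the filter on low values.

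All 9 libraries come from mouse embryonic fibroblasts (MEF) of strain C57Bl/6cJ that were given plasmids for Oct4, Sox2, Klf4 and c-Myc and grown in embryonic stem cell medium with serum and LIF. The cells also carried a pretroSuper construct with a hairpin against luciferase (the control arm), against Hnrnpk, or against Trp53cor1, the gene of lincRNA-p21. Each arm was sampled on days 6, 9 and 12 of reprogramming, so every group is 1 library, and the labels call each library merged replicates. Each target has 1 hairpin arm, so loss of the target cannot be told apart from other effects of that hairpin.

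In the canonical branch of the pathway, a Wnt protein binds a Frizzled receptor together with Lrp5 or Lrp6. The complex of Axin, Apc and kinases then no longer destroys beta-catenin, which enters the nucleus and acts with the DNA-binding factors Tcf7, Lef1, Tcf7l1 and Tcf7l2. Axin2, Nkd1, Nkd2, Znrf3 and Notum are known as target genes whose products restrain the signal. In embryonic stem cells Tcf7l1 is known mainly as a repressor of pluripotency genes, and stabilised beta-catenin relieves that repression. Fibroblasts of the embryo are known to make many Wnt ligands and antagonists themselves.

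Values are the authors' normalized signal, and the number of reads behind a library is unknown. A difference is always between values of log2(signal + 10), so it understates the change of genes with low signal. Arms were compared within days and days within arms in 1 limma fit over the 12541 genes with a mean of at least 20. A gene passed when its Benjamini-Hochberg adjusted p over all those genes was under 0.05. Since replicates were merged before deposit, p-values measure only how a difference varied between the days or the arms. In the control arm (called controls below) Hnrnpk stood at 23376 to 31243, against 11349 to 17016 in its own arm. Trp53cor1 stood at 237 to 286.5 in the control arm, 90.5 to 122 in its own arm and 119.5 to 137 in the Hnrnpk arm. All 14 fibroblast markers were in the table, none of them at 0 in any library. In bulk RNA, fewer cells of a type and less RNA per cell cannot be told apart.

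The stretches upstream of 3 feedback genes, Axin2, Nkd2 and Lef1, are shown because these genes fell together after day 6. Axin2 was also above control on each day in both knockdown arms, though it passed only in the Hnrnpk arm. Each line gives the 250 bases before the RefSeq start (GRCm38.p6), 5′ to 3′ on the strand of the gene. Capitals mark CTTTG or its reverse CAAAG, the short core that Tcf and Lef proteins bind. The windows lie at chr11:108920099-108920348 on the plus strand (Axin2), chr13:73847632-73847881 on the minus strand (Nkd2) and chr3:131110047-131110296 on the plus strand (Lef1, the first of 4 listed starts).
Axin2: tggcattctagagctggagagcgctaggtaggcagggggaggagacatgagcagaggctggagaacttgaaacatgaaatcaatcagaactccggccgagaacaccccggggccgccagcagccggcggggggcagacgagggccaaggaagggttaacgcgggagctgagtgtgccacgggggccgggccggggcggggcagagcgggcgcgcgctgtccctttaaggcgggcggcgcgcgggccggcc
Nkd2: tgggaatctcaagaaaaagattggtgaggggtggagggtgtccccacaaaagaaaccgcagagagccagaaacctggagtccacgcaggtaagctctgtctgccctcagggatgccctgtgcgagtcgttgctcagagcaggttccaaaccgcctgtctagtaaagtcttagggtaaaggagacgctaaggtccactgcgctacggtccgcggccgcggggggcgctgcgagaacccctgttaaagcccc
Lef1: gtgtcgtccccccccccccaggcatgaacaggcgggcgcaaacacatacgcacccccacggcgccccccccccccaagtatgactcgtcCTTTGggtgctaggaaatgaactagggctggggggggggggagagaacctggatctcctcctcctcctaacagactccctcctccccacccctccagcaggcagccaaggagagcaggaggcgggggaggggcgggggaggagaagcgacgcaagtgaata

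RefSeq promoters were matched for 22 of the 38 members (28 starts). The letters CTTTG, on either strand, occur in the 250 bases before 48.6% of all 32851 listed starts and before 11 of the 28. These 11 belong to Dkk2, Fzd1, Fzd10, Fzd7, Lef1, Tcf7l1 and Tcf7l2. All 4 listed starts of Lef1 are among them, and the windows of its starts 1 and 2 overlap. The longer form CTTTGA, which contains CTTTG, occurs before 13.8% of all starts and before 2 of the 28, those of Fzd1 and Lef1 (its most downstream listed start). The 7-letter CTTTGAT, which contains both, occurs before 3.21% of all starts and before 0 of the 28. The Lef1 stretch shown holds 1 CTTTG, and Axin2 and Nkd2 hold none in this window. Tcf7, which also fell after day 6, has 2 listed starts, not shown, with 0 CTTTG before each. The windows are rich in G and C, at 69.2% in Axin2, 58.4% in Nkd2 and 66.4% in Lef1. A match of letters is a description of the sequence and not a mapped binding site.

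Levels were compared between genes only as signal per kb of exon. Beta-catenin (Ctnnb1), the transducer of the canonical branch, had the highest level of the 38, with a mean of 3797 per kb and a range of 2787 to 4138 over the 9 libraries. Next came Lgr4, the receptor of R-spondins, at 646 per kb (455 to 860), and the nuclear factor Tcf7l1 at 587 (377 to 1185). Fzd7 led the receptors at 407 per kb (350 to 478), and its range overlapped that of Fzd2 at 297 (213 to 471). Sfrp1, Dkk2 and Sfrp2 led the antagonists at 413, 396 and 385 per kb, in overlapping ranges. Among the ligands Wnt16 stood highest at 158 per kb (63.3 to 264), above Wnt5a at 88.5 (58.2 to 128), again with overlap. The feedback genes were low, from 61.5 per kb for Tcf7 down to 17 for Axin2. Wnt7b was the lowest member at 9.19 per kb.

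**Figure D1:**
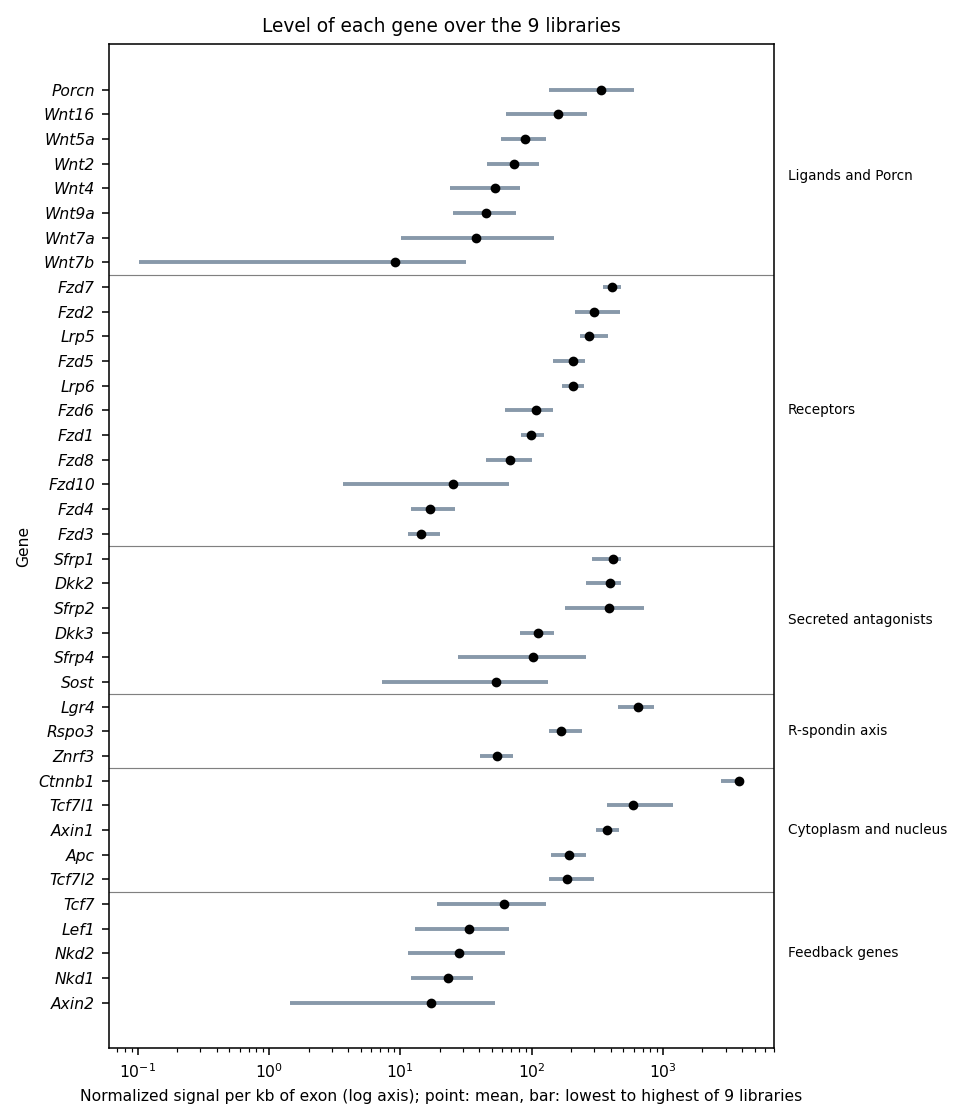
Normalized signal per kb of exon (log axis) for the 38 Wnt pathway genes, grouped by role; points are means and bars run from the lowest to the highest of 9 libraries. Ctnnb1 stands highest at 3797 per kb and Wnt7b lowest at 9.19 per kb, with the widest bars in Wnt7b, Axin2, Fzd10 and Sost.

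With Hnrnpk reduced, the antagonist Sost and the ligand Wnt16 fell, while the antagonist Sfrp4, the feedback gene Axin2, the receptor Fzd10 and the ligands Wnt7a, Wnt7b and Wnt9a rose. Of the 38 members 6 rose and 3 fell, the third being Fzd4 (limma with Benjamini-Hochberg at 0.05). That is 23.7% of the members, beside 12.5% of all genes tested, of which 5.58% rose and 6.94% fell. By role, 3 of the 8 genes in the ligand group (7 Wnt genes and Porcn) rose and 1 fell, 1 of 11 receptors rose and 1 fell, 1 of 6 antagonists rose and 1 fell, 1 of 5 feedback genes rose, and none of the 5 core and 3 R-spondin axis genes passed. The median difference of the members was -0.03 and that of all genes 0.00, and 19 members lay above 0 and 19 below. At unadjusted p under 0.05 there were 20 of the 38, and 3685 of the 12541 genes tested.

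Axin2 encodes the scaffold that limits beta-catenin and is the most widely used readout of canonical Wnt signalling. It lies on chromosome 11 at 108920349 to 108950783, plus strand (GRCm38, GENCODE M21). Its signal was 110, 8 and 10 on days 6, 9 and 12 in controls against 291, 52.5 and 56 in the Hnrnpk arm. Within each day the Hnrnpk library was the higher one, by 1.33, 1.80 and 1.72, although the control library of day 6 lay above the later Hnrnpk libraries. Axin2 rose by 1.62 overall (SE 0.18, limma adjusted p = 0.00339), which is 3.06-fold. The control libraries of days 9 and 12 lie at or under the added 10, so the size depends on it, and with 50 added the rise was 0.91.

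Fzd10, a Frizzled receptor, lies on chromosome 5 at 128600844 to 128604093. Its signal was 77, 21 and 12 in controls against 219.5, 65 and 54 in the Hnrnpk arm. Every day showed a similar gap (1.40, 1.27 and 1.54), and Fzd10 rose by 1.40 (SE 0.17, limma adjusted p = 0.00357), or by 0.84 with 50 added. Fzd4, the receptor of Norrin and of Wnt ligands, on chromosome 7 at 89404355 to 89413134, went the other way. It was at 176.5, 131.5 and 130 in controls against 102, 101.5 and 81 in the Hnrnpk arm, with no overlap between the arms. Its fall of -0.57 (SE 0.15, limma adjusted p = 0.0435) was lost when any 1 of the 9 libraries was left out.

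The 2 antagonists that passed moved in opposite directions. Sost, or sclerostin, which binds Lrp5 and Lrp6 and is known from bone, lies on chromosome 11 at 101962458 to 101967015, minus strand. It stood at 157, 276.5 and 156 in controls, against 68, 33.5 and 15 in the Hnrnpk arm, where every library lay under every control library. The fall was -2.18 (SE 0.31, limma adjusted p = 0.00557), and it was -1.10 on day 6 and -2.72 and -2.73 on days 9 and 12. Sfrp4, a secreted Frizzled-like protein that binds Wnt ligands, lies on chromosome 13 at 19623104 to 19632994. It went from 426.5 to 211 and 115 with time in controls and stood at 1093.5, 533 and 708 in the Hnrnpk arm, above every control library. Its rise of 1.72 (SE 0.24, limma adjusted p = 0.00526) was 1.34, 1.30 and 2.52 on days 6, 9 and 12. Of the 4 other antagonists none passed, and their differences ran from -0.38 (Dkk2) to -0.11 (Dkk3).

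Among the ligands, Wnt16 on chromosome 6 (22288227 to 22298522) stood at 988, 766 and 620 in controls against 709, 332.5 and 276 in the Hnrnpk arm. It was lower on every day and fell by 0.93 (SE 0.14, limma adjusted p = 0.00713). The paralogs Wnt7a and Wnt7b, known as ligands of epithelia and neural tissue, lie on chromosome 6 (91363981 to 91411363) and chromosome 15 (85535437 to 85582473), and both rose. Wnt7a stood at 64, 32 and 57.5 in controls against 467.5, 89.5 and 98 in the Hnrnpk arm, a rise of 1.54 (SE 0.34, limma adjusted p = 0.0234) that was largest on day 6 (2.69) and 0.96 without that day. Wnt7b stood at 0.5, 20.5 and 46.5 in controls against 11, 87 and 155.5 in the Hnrnpk arm. Its rise was 1.41 (SE 0.23, limma adjusted p = 0.00829), and 2.25 or 0.77 with 1 or 50 added. In both arms Wnt7b was lowest on day 6 and highest on day 12, while Wnt7a was highest on day 6.

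Wnt9a, a ligand known from joint development, lies on chromosome 11 at 59306928 to 59333552. It stood at 83.5, 94 and 148 in controls, against 254.5, 169 and 199.5 in the Hnrnpk arm. The arms did not overlap, and Wnt9a rose by 0.90 (SE 0.21, limma adjusted p = 0.0274), or by 0.60 without day 6. Wnt5a, the best known ligand of the non-canonical branch, stood at 800, 613 and 483.5 in controls against 1004, 525.5 and 455 in the Hnrnpk arm. The arms crossed between days, and the difference was 0.01 (SE 0.13, limma adjusted p = 0.98).

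Among the members, no core or co-receptor gene passed in the Hnrnpk arm. Ctnnb1 read 17637, 21484 and 19919 in controls against 18590, 21484 and 21484 in the Hnrnpk arm (difference 0.06, SE 0.12, limma adjusted p = 0.776). The value 21484 also recurred on day 9 of the lincRNA-p21 arm, 4 libraries in all. Lrp6 stood at 3445.5, 2716 and 3186 in controls against 2968, 2756 and 2462 in the Hnrnpk arm, a difference of -0.19 (SE 0.13, limma adjusted p = 0.381). Lrp5, the other co-receptor, stood at 2910, 2706 and 3685 in controls against 2351.5, 2444.5 and 2288 in the Hnrnpk arm. The Lrp5 arms did not overlap, and the difference of -0.38 did not pass (SE 0.12, limma adjusted p = 0.0689). Lgr4 stood at 3946, 4376.5 and 5060 in controls, against 3640, 3315.5 and 2675 in the Hnrnpk arm. The Lgr4 arms did not overlap and drew apart from day 6 to day 12, and the difference of -0.48 did not pass (SE 0.15, limma adjusted p = 0.069). Sfrp1, the antagonist with the highest level, stood at 1981.5, 2107 and 1928 in controls against 1465.5, 1957 and 1949.5 in the Hnrnpk arm (difference -0.17, SE 0.12, limma adjusted p = 0.374).

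**Figure D2:**
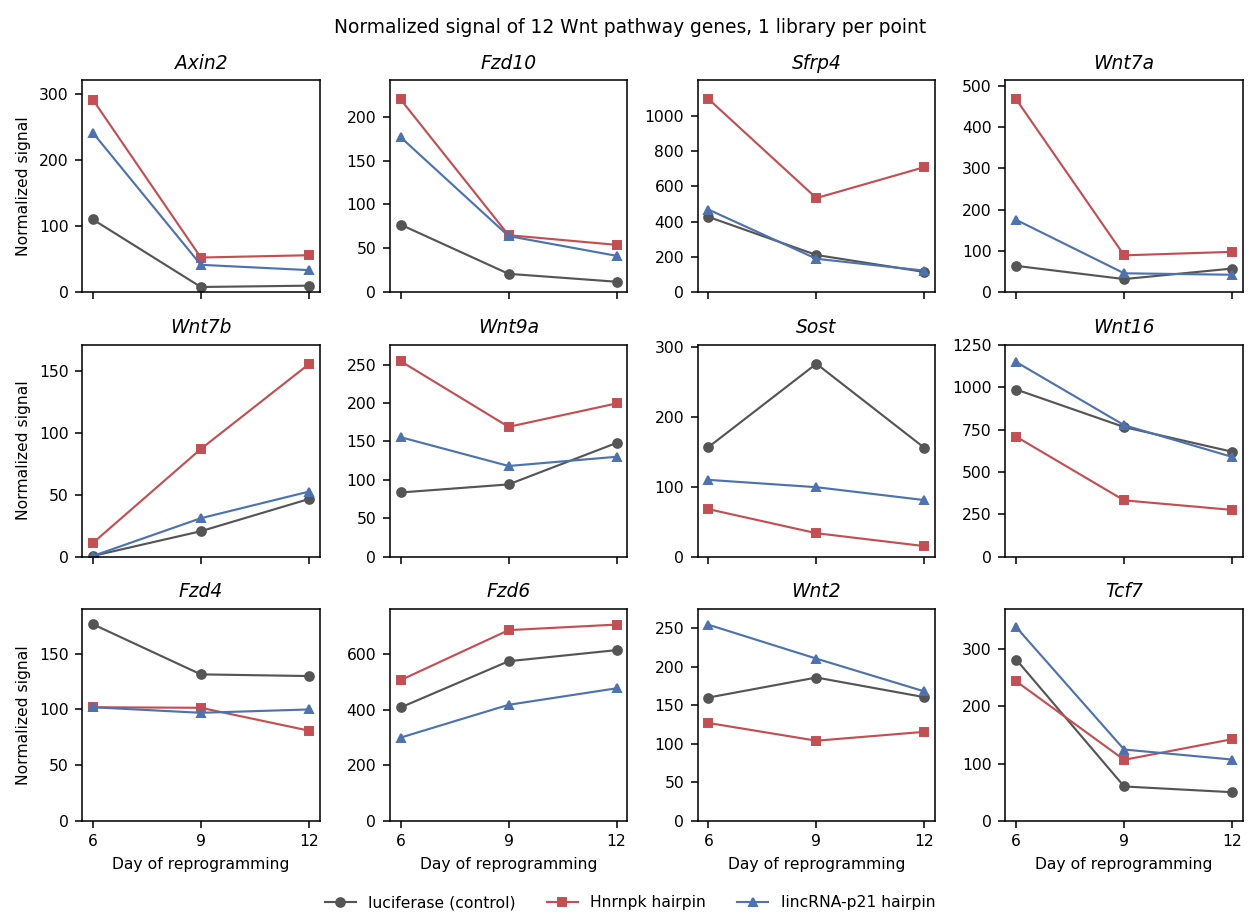
Normalized signal of 12 Wnt pathway genes against day of reprogramming, 1 library per point, with linear axes that start at 0. Axin2 and Fzd10 lie above control in both knockdown arms on every day, Sfrp4 in the Hnrnpk arm lies above every control library, and Sost is lowest in the Hnrnpk arm on every day.

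The count of 9 members depended on which days were used. Without day 9 limma called 0 (12 of 38 at unadjusted p under 0.05), without day 12 there were 6 and without day 6 there were 14. Leaving out the control library of day 6 gave 14, and leaving out that of day 9 or the Hnrnpk library of day 9 gave 5 each. Axin2, Fzd10, Sfrp4, Sost and Wnt16 passed without any 1 library. Wnt7a lost its call without the control library of day 9 or the Hnrnpk library of day 6 or 9. Wnt7b lost it without the control library of day 9 or the Hnrnpk library of day 9 or 12. Wnt9a lost it without the control library of day 9, any Hnrnpk library or the lincRNA-p21 library of day 9. The direction of each of the 9 held in all of these fits.

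Markers of other cell states moved with this comparison. In the Hnrnpk arm 6 of 8 epithelial, 5 of 6 keratinocyte and 6 of 10 pluripotency markers rose and none fell, while 0 of 14 fibroblast markers passed. The summed epithelial signal was 4423 to 22330.5 over controls, 5396.5 to 43340 over Hnrnpk libraries and 2717.5 to 21368 over lincRNA-p21 libraries. The summed keratinocyte signal was 1051.5 to 4405.5, 2107.5 to 11877.5 and 1313 to 5298.5 in the same order. The summed pluripotency signal was 28210.5 to 91549.5, 17589.5 to 52612 and 19684.5 to 54736.5 in that order. This sum was lower in the Hnrnpk arm than in control on days 6 and 12 and higher on day 9. The 1 pluripotency marker with a difference below 0 was at -0.60 and did not pass. No epithelial or keratinocyte marker in the table was at 0 in any library, while 2 pluripotency markers were at 0 in some library, and Krt15 and Trp63 are not analysed here. Of the neural list 4 of 8 rose and 1 fell, and its summed signal was 6140 to 7125 over controls, 9440.5 to 14171 over Hnrnpk libraries and 7485 to 10748.5 over lincRNA-p21 libraries. Of the 4 muscle markers in the table Des and Acta1 rose and Tnni1 fell, and their summed signal was 295.5 to 960.5, 488 to 1002 and 434.5 to 699 in that order. Myod1, Myog and Ckm, which define muscle, are not analysed here. The part of these shifts in the differences of Wnt7a, Wnt7b, Wnt9a and the other members was not tested.

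The comparison of the lincRNA-p21 arm with control used the same 3 control libraries. Axin2 and Fzd10 had the largest positive differences among the members, and Sost the largest negative one, but no member passed. Trp53cor1, the target of this hairpin, did not pass here either (-1.25, SE 0.15, limma adjusted p = 0.0603). In the Hnrnpk arm it did (-0.94, SE 0.15, limma adjusted p = 0.00752). A gene that did not pass here is therefore not shown to be unchanged. By limma 0 of 38 passed, beside 0.00797% of all genes tested (1 gene). At unadjusted p under 0.05 there were 7 members (Axin2, Fzd10, Tcf7, Fzd6, Fzd4, Sfrp1 and Sost), beside 1730 of the 12541 genes tested. Without the intensity trend Axin2 and Fzd10 passed. The same 2 passed without the control or the Hnrnpk library of day 6, and Fzd10 and Sost passed without day 6 as a whole.

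Axin2 was at 241, 41.5 and 33.5 in the lincRNA-p21 arm against 110, 8 and 10 in control. It was higher on every day (1.06, 1.52 and 1.12), a difference of 1.23 (SE 0.18, limma adjusted p = 0.0681). Over the alternatives the adjusted p of Axin2 ran from 0.0401 to 0.893, and with 50 added its difference was 0.67. Fzd10 was at 176.5, 64 and 41.5 against 77, 21 and 12, a difference of 1.19 (SE 0.17, limma adjusted p = 0.0681, 0.0231 to 0.893 over the alternatives) that was 0.69 with 50 added. Both genes lay between control and the Hnrnpk arm on each day. For the Hnrnpk arm the differences of the same genes were 1.62 and 1.40.

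Sost was at 110, 99.5 and 81 in the lincRNA-p21 arm, under every control library and above every Hnrnpk library (difference from control -0.91, SE 0.31, limma adjusted p = 0.264). Fzd4 was at 102, 97 and 100, also under every control library (-0.50, SE 0.15, limma adjusted p = 0.217). Tcf7, a DNA-binding partner of beta-catenin, was at 338, 124.5 and 107 against 281.5, 60 and 50 in control, a difference of 0.72 (SE 0.25, limma adjusted p = 0.273) that was 0.48 without the control library of day 12. In the Hnrnpk arm Tcf7 was at 243.5, 106.5 and 142.5, under control on day 6 and above it on days 9 and 12. Fzd6, a receptor of the polarity branch known from skin and hair, was at 300, 418 and 477.5 against 408.5, 575 and 615 in control (-0.41, SE 0.09, limma adjusted p = 0.115).

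Of the 38 members 55.3% had differences above 0 in the lincRNA-p21 arm, beside 53.8% of all genes tested. By role these were 8 of 8 genes of the ligand group, 5 of 5 feedback genes, 4 of 11 receptors, 2 of 6 antagonists, 1 of 5 core genes and 1 of 3 R-spondin axis genes. Sfrp4 and Wnt16, which passed in the Hnrnpk arm, were at 0.02 (limma adjusted p = 0.977) and 0.06 (limma adjusted p = 0.89) here. No fibroblast, epithelial, keratinocyte or pluripotency marker passed in the lincRNA-p21 arm, with 2, 3, 2 and 6 of them at unadjusted p under 0.05. Of the neural list Nefl rose, the 1 gene called in the whole table, and 4 of 8 were at unadjusted p under 0.05. The part of these markers in the member differences was not tested.

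**Figure D3:**
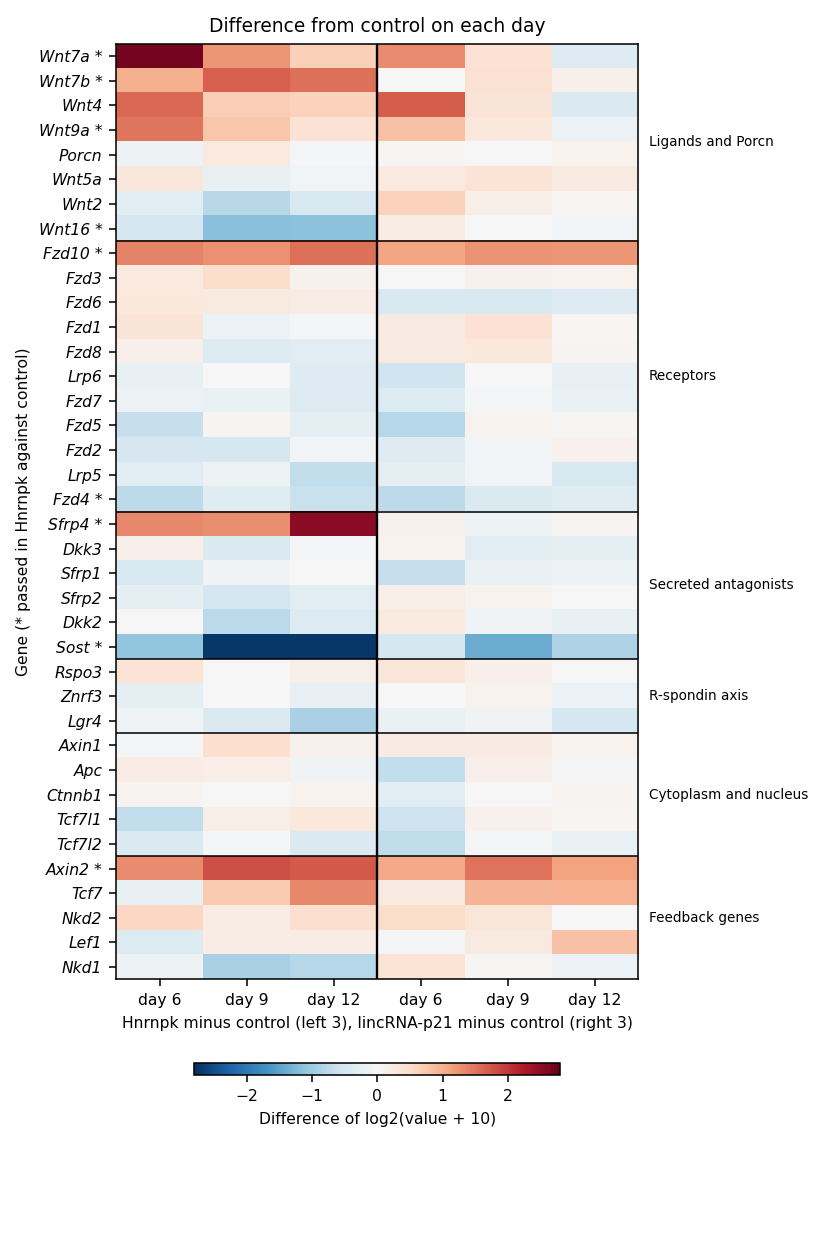
Difference of log2(signal + 10) from the control library of the same day for the 38 Wnt pathway genes, in the Hnrnpk arm (left 3 columns) and the lincRNA-p21 arm (right 3 columns), grouped by role. Stars mark the 9 members that passed in the Hnrnpk comparison, and Axin2 and Fzd10 are above control in all 6 columns.

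Whether the 2 knockdown arms differ from each other was tested directly. The lincRNA-p21 arm was lower than the Hnrnpk arm in Sfrp4, Wnt7b and Fzd6 and higher in Wnt16 and Wnt2. These 5 of 38 members (13.2%) passed, 2 higher and 3 lower, beside 3.26% of all genes tested, 1.7% higher and 1.56% lower (limma with Benjamini-Hochberg at 0.05). The median difference of the members was 0.01, and 12 were at unadjusted p under 0.05, beside 2381 of the 12541 genes tested.

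Sfrp4 was at 468, 189.5 and 122.5 in the lincRNA-p21 arm, close to control and under every Hnrnpk library, a difference from the Hnrnpk arm of -1.70 (SE 0.24, limma adjusted p = 0.0141). Wnt7b was at 0.5, 31 and 52.5, lower than in the Hnrnpk arm on every day (-1.22, SE 0.23, limma adjusted p = 0.0341). Its call was lost with 50 added (-0.68, limma adjusted p = 0.0783, 0.0105 to 0.427 over the alternatives). Wnt16 was at 1150.5, 777 and 589.5, within 0.22 of control on each day and higher than in the Hnrnpk arm by 0.99 (SE 0.14, limma adjusted p = 0.0146). Wnt2, a canonical ligand known from lung and placenta, on chromosome 6 at 17988940 to 18030585, was at 254.5, 210.5 and 168 in the lincRNA-p21 arm and 127, 104 and 115.5 in the Hnrnpk arm. The control library lay between them on each day, at 160, 186 and 160.5, and the 2 knockdown arms differed by 0.80 (SE 0.16, limma adjusted p = 0.0372).

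Fzd6 was the other called member whose 2 knockdown arms lay on opposite sides of control on every day. It was at 507, 687 and 707 in the Hnrnpk arm, above control, against 300, 418 and 477.5 with the lincRNA-p21 hairpin, below control (difference between the arms -0.67, SE 0.09, limma adjusted p = 0.0141). Wnt7a was at 175.5, 46 and 42.5 in the lincRNA-p21 arm, and its difference from the Hnrnpk arm of -1.08 did not pass (SE 0.34, limma adjusted p = 0.133) and was -0.72 without the Hnrnpk library of day 6. Sost differed by 1.27 (SE 0.31, limma adjusted p = 0.0677), and by 0.76 with 50 added. Axin2 and Fzd10 differed between the knockdown arms by -0.38 (SE 0.18, limma adjusted p = 0.313) and -0.21 (SE 0.17, limma adjusted p = 0.555), neither of which passed, though that does not show that the arms act alike.

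The 5 calls between the knockdown arms were fragile. By limma there were 0 without the Hnrnpk library of day 9, without any 1 lincRNA-p21 library, or without day 9 or day 12 as a whole, with 7 to 14 members then at unadjusted p under 0.05. There were 2 without the Hnrnpk library of day 12, 3 without the control library of day 9 and 10 without the control library of day 6. Here too markers moved, since 7 of 8 epithelial and 3 of 6 keratinocyte markers were lower in the lincRNA-p21 arm than in the Hnrnpk arm. Their part in the difference of Wnt7b and Fzd6 was not tested.

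Between days 6 and 9 the 5 members grouped here as feedback genes fell together. Notum, a target on the wider list below, did not follow them. It was higher on day 9 than on day 6 in the control and lincRNA-p21 arms and lower in the Hnrnpk arm. Axin2, Nkd2, Tcf7 and Lef1 fell, and Nkd1, the remaining feedback gene, was at -0.48 (SE 0.18, limma adjusted p = 0.0632), with all 5 lower on day 9 in each of the 3 arms. Of the 38 members 16 fell and 6 rose (57.9%), beside 39.9% of all genes tested, of which 21% fell and 18.9% rose (limma with Benjamini-Hochberg at 0.05). The median difference was -0.30 for the members and -0.01 for all genes, and 76.3% of the members lay below 0 against 50.6% of all genes.

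Axin2 had the largest fall, from a mean of 214 on day 6 to 34 on day 9 over the 3 arms (-2.43, SE 0.18, limma adjusted p = 8.18e-05). Nkd2, a Dishevelled-binding inhibitor of the pathway, was at 197, 300 and 287 on day 6 in control, Hnrnpk and lincRNA-p21 libraries and at 66.5, 78 and 87.5 on day 9 (-1.62, SE 0.17, limma adjusted p = 0.000319). Lef1, a nuclear partner of beta-catenin, was at 595, 456 and 572 on day 6, at 171, 198 and 204 on day 9 and at 114, 133.5 and 209.5 on day 12. Every day 6 library of Lef1 lay above every later one, and the fall to day 9 was -1.45 (SE 0.18, limma adjusted p = 0.000595). Tcf7 fell by 1.52 (SE 0.25, limma adjusted p = 0.00244). Fzd10 fell with them by 1.48 (SE 0.17, limma adjusted p = 0.000436).

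Other falls from day 6 to day 9 were spread over the roles. Wnt7a fell by 1.60 (SE 0.34, limma adjusted p = 0.00707), Sfrp4 by 1.09 (SE 0.24, limma adjusted p = 0.00823) and Tcf7l1, the repressor of the family, by 0.98 (SE 0.18, limma adjusted p = 0.00344). Tcf7l1 was at 4651 on day 6 and 1633 on day 9 in controls, 2889.5 and 1821 with the Hnrnpk hairpin, and 3086 and 1785.5 with the lincRNA-p21 hairpin. The 8 further members that fell were Sfrp2, Fzd8, Wnt16, Rspo3, Fzd2, Tcf7l2, Wnt5a and Znrf3, with differences of -0.34 to -0.98.

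The 6 rises were Wnt7b, Porcn, Dkk3, Fzd6, Ctnnb1 and Sfrp1. Porcn, the acyltransferase that Wnt proteins need for their secretion, was at 453.5, 410 and 467.5 on day 6 in control, Hnrnpk and lincRNA-p21 libraries, at 798, 970 and 809 on day 9 and at 1684, 1658 and 1798 on day 12. The 3 arms moved closely together, and the 3 days did not overlap. Porcn rose by 0.93 to day 9 (SE 0.11, limma adjusted p = 0.000587). Wnt7b rose from a mean of 4 to 46.2 (1.90, SE 0.23, limma adjusted p = 0.000578), with a size that depends on the number added (3.71 with 1 and 0.78 with 50). Dkk3, a Dkk family member whose role in Wnt signalling is debated, rose by 0.53 (SE 0.13, limma adjusted p = 0.0134) and Fzd6 by 0.46 (SE 0.09, limma adjusted p = 0.00581). Ctnnb1 (0.35, SE 0.12, limma adjusted p = 0.0469) and Sfrp1 (0.35, SE 0.12, limma adjusted p = 0.046) were near the threshold, and each lost its call in 10 of 18 alternatives. Every day 9 library of Ctnnb1 read the same 21484, so its arms showed no spread on that day.

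The count of 22 fell to 11 without the lincRNA-p21 arm and was 16 to 25 without any 1 library. Axin2, Nkd2, Tcf7, Lef1, Fzd10, Tcf7l1, Porcn and Wnt7b passed in every alternative run. Sfrp4 lost its call without the lincRNA-p21 library of day 6, and Dkk3 without the control or the lincRNA-p21 library of day 9. Fibroblast markers also fell between these days (6 of 14, none rising), and 8 of 8 epithelial and 9 of 10 pluripotency markers rose. The part of that shift in the changes of the Wnt genes was not tested.

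From day 9 to day 12 few members changed. Porcn rose again by 0.99 (SE 0.11, limma adjusted p = 0.0156) and Sfrp2, a secreted antagonist abundant in fibroblasts, fell by 0.59 (SE 0.10, limma adjusted p = 0.0432), 2 of 38 members (5.26%) beside 0.654% of all genes tested. In the same step 3 of 8 epithelial markers rose and 8 of 8 were at unadjusted p under 0.05, and their part in the member changes was not tested. Sfrp2 was at 743.5, 523.5 and 795 on day 9 in control, Hnrnpk and lincRNA-p21 libraries and at 478, 384 and 482 on day 12, lower in each arm. Axin2 was at a mean of 34 on day 9 and 33.2 on day 12, a difference of 0.00 (SE 0.18, limma adjusted p = 0.995). The count was 0 without the control library of day 9 or 12, the Hnrnpk library of day 9 or any lincRNA-p21 library, or without the control or lincRNA-p21 arm, with 3 to 6 members at unadjusted p under 0.05 in those fits. It was 1, that of Porcn, without the Hnrnpk library of day 12 or the Hnrnpk arm.

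**Figure D4:**
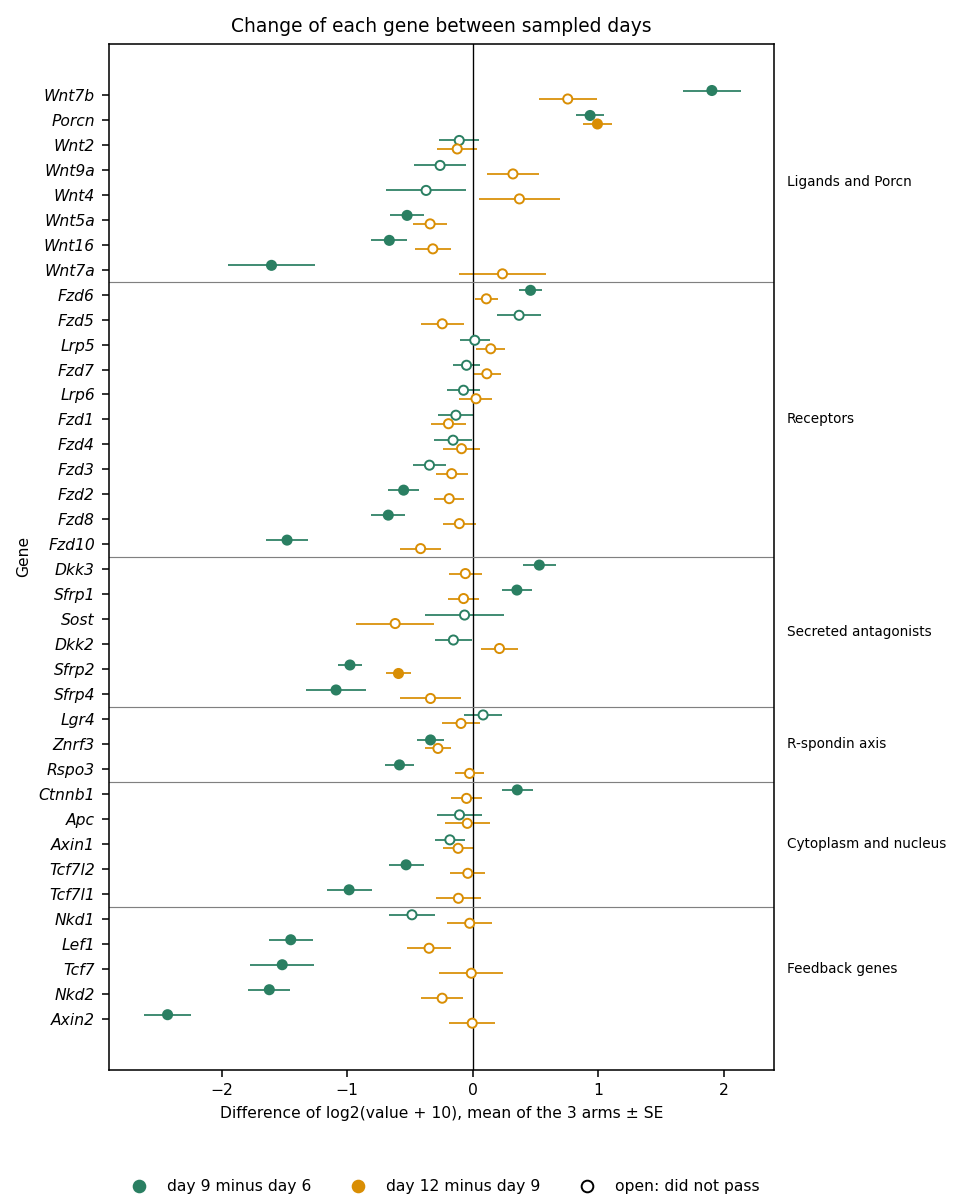
Difference of log2(signal + 10) between sampled days for the 38 Wnt pathway genes, as the mean of the 3 arms with its SE, grouped by role; filled points passed the test. The feedback genes lie at -0.48 to -2.43 from day 6 to day 9 and at 0.00 to -0.35 from day 9 to day 12, and Porcn rises in both steps.

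A wider list of 75 pathway genes outside the members, also drawn up with earlier results of these data known, had 62 in the table. In the Hnrnpk arm 6 rose and 5 fell (17.7% beside 12.5% of all genes, median -0.02). Gpc4, a heparan sulfate proteoglycan that binds Wnt proteins, had the largest rise of these. It stood at 3179.5, 2046.5 and 1746 in controls against 8804, 4116 and 4059.5 in the Hnrnpk arm (1.23, SE 0.13, limma adjusted p = 0.00286). Notum, a secreted enzyme that strips the lipid from Wnt proteins and is itself a Wnt target, was at 254, 275 and 228 in controls, against 632.5, 571 and 434 in the Hnrnpk arm, all above every control library. It rose by 1.07 (SE 0.14, limma adjusted p = 0.0044). Under the lincRNA-p21 hairpin Notum was at 451, 567 and 530, again above every control library, by 0.80 to 1.18 on the 3 days, which did not pass (limma adjusted p = 0.0681).

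Apc2, a paralog of Apc, rose in the Hnrnpk arm by 1.01 (SE 0.26, limma adjusted p = 0.0381), or by 0.54 without day 6 and 0.63 without its control library. That call was lost when any 1 library other than the control libraries of days 6 and 12 was left out. Celsr2, a cadherin of the polarity branch, fell by 0.85 (SE 0.13, limma adjusted p = 0.0063), and of 9 polarity genes 3 fell and 1 rose. Jun was the 1 gene of 11 other reported targets to rise, and Apc2 the 1 of 17 cytoplasmic genes. In the lincRNA-p21 arm 0 of 62 passed by limma, with 10 at unadjusted p under 0.05, beside the 1730 of 12541 genes. Between the knockdown arms 1 of 62 passed (1.61%, Frzb, the antagonist also called Sfrp3, lower in the lincRNA-p21 arm by -0.58, SE 0.12, limma adjusted p = 0.0465). The call of Frzb was lost when any 1 library other than the control library of day 6 was left out. From day 6 to day 9 the wider list had 21 falls and 5 rises (41.9% beside 39.9% of all genes), with a median of -0.27.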

How the data were processed

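RNA-seq of 9 libraries, 1 per arm and day, was analysed from 1 table of 12550 genes. The deposited values are a normalized signal; how the authors scaled it is not stated in the sources used here. RSEM 1.2.12, Bowtie 1.0.1 and build mm10 are named, without roles, per the submitters' processing notes. The deposited signal has column totals within 0.0252% of each other and 1 shared highest value of 118715, so depth is unknown and no count test was used.

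With 10 added before the log2, the 12541 genes with a mean of at least 20 were fitted with a term for each arm and day in limma 3.58.1 (R 4.3.3; 4 residual degrees of freedom, 8.46 with the prior), with an intensity trend and Benjamini-Hochberg adjustment at 0.05. Alternatives were 1 or 50 added, no filter or a mean of 100, no trend, median centring, only the 2 arms compared, and leaving out each library, day or arm.

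The fit was also run on data simulated from the same terms for arm and day. Such data cannot show how merged replicates, or arm differences that change between days, affect the calls. Members and lists were chosen with earlier results of these data known. Named in full were members called between arms, the 6 largest differences in the same direction on all 3 days of each arm comparison, and the member with the highest mean of each role; for days, up to 8 called members each way; from the wider list, up to 4. Tcf7 and Lef1 count here as feedback genes. Positions and exon lengths are from GENCODE M21 (GRCm38, the same assembly as mm10), which holds all 38 members. Exons of 10 members overlap another annotated gene, among them Axin2 (3.8% of its exon bases, antisense), Fzd6 (3.2%), Wnt7b (6.6%), Lef1 (13.7%) and Ctnnb1 (14.6%, with Ulk4); whether strand was used in counting is not stated in the sources used here.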

Additional observations from a re-analysis of the deposited data

Results flagged for a closer look

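Sfrp4, Wnt7b, Fzd6, Wnt16 and Wnt2 differed between the 2 knockdown arms by the direct test of the lincRNA-p21 arm against the Hnrnpk arm. Fzd6 and Wnt2 passed against control in neither arm. None of these calls held without the Hnrnpk library of day 9, without any 1 lincRNA-p21 library, or without day 9 or day 12 as a whole. The differences were -1.70 for Sfrp4, -1.22 for Wnt7b, -0.67 for Fzd6, 0.99 for Wnt16 and 0.80 for Wnt2 (limma adjusted p of 0.0141, 0.0341, 0.0141, 0.0146 and 0.0372), each in the same direction on all 3 days.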

How the results depend on the processing

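The falls of Sfrp2, Fzd8, Wnt16, Rspo3, Fzd2, Tcf7l2, Wnt5a and Znrf3 from day 6 to day 9 were not followed through the alternatives. Every other member difference that passed kept its sign in all alternatives run for it, but differences near 0 did not. Axin2 from day 9 to day 12 was 0.027 with 1 added and ran from -0.12 to 0.12 with a library or arm left out. With a library or day left out, Dkk3 in the Hnrnpk arm ran from -0.24 to 0.044 and Wnt5a there from -0.16 to 0.14, and in the lincRNA-p21 arm Sfrp4 ran from -0.19 to 0.19 and Wnt16 from -0.10 to 0.14. For the Hnrnpk arm against control, 9 members became 5 with a mean of at least 100 (Axin2, Fzd10 and Wnt7b were filtered out and Fzd4 lost its call). They became 5 with only the 2 arms fitted, and 0 to 14 when a library or day was left out. All genes called went from 1570 to 330 with only the 2 arms, and to 25 to 3001 with a library or day left out. For the lincRNA-p21 arm against control, 0 members became 2 without the trend and 0 to 2 with a library or day left out. The 1 gene called among all became 13 without the trend, 0 with 50 added or only the 2 arms, and 0 to 175 with a library or day left out. Between the knockdown arms, 5 members became 8 with only those arms and 0 to 10 with a library or day left out, and 409 genes became 646 and 0 to 959. From day 6 to day 9, 22 members became 11 to 25 and 5008 genes 1778 to 5605 with a library or arm left out. From day 9 to day 12, 2 members became 1 with 1 added, 1 without the trend and 0 to 2 with a library or arm left out, and 82 genes became 50 with 1 added and 0 to 421. Where no reason is given in brackets, the cause was not tested. Depth is unknown and replicates were merged, so sampling noise behind low values such as those of Axin2, Wnt7b and Fzd10 could not be measured.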
